A study of Mus musculus with 12 samples.

Results

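The NF-κB subunit and inhibitor genes described here are 10 genes of a count table of 16353 mouse genes. They are the 5 subunit genes Nfkb1, Nfkb2, Rel, Rela and Relb, 4 genes of the inhibitor (IκB) family (Nfkbia, Nfkbie, Nfkbid and Nfkbiz), and Tnfaip3. The rule takes them by symbol and holds no measured value, but they were chosen with earlier results of these data known. Each had 1 row in the table. All 10 were among the 12499 genes with enough reads to be tested. The fewest reads behind any value of theirs was 484, for Nfkbiz in a tolerized library.

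The material was messenger RNA of CD8 T cells that carry the KB5 T cell receptor, taken from spleens of CBA/J mice and sorted on that receptor and CD8 to a stated purity of 95%. The naive group was untreated. The activated group came from mice that received 10000000 C57BL/6 splenocytes intravenously, a donor-specific transfusion that brings H2b antigens foreign to CBA/J mice. The tolerized group came from mice given the transfusion and 0.5 mg of anti-CD154, an antibody against CD40 ligand. The inflamed group had, on top of transfusion and antibody, 100 µg of LPS (lipopolysaccharide), the bacterial cell-wall component that triggers Toll-like receptor signalling. Spleens of treated mice were taken at 12 h, so each treated group was seen at 1 time only, and anti-CD154 or LPS alone was not among the groups. Each group had 3 libraries. The libraries are labelled as independent without being tied to separate mice. A p-value here therefore reflects only how far these samples spread, which may be technical. The stated aim was to find the expression changes that accompany blocked costimulation.

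NF-κB is a family of dimeric transcription factors held inactive in the cytoplasm of resting cells by IκB proteins. Signals from the T cell receptor, costimulatory receptors, tumour necrosis factor receptors and Toll-like receptors act through the IκB kinase (IKK) complex, which marks IκB proteins for destruction and so frees the dimers to enter the nucleus. The non-canonical route uses the kinase encoded by Map3k14 and the processing of the Nfkb2 precursor. In T cells Rel and Rela carry activating domains and are needed for full activation, and several family genes, Nfkbia and Tnfaip3 among them, are themselves NF-κB targets and close feedback loops. The measurements below are transcript levels. NF-κB activity is set largely by protein breakdown and nuclear entry and was not measured.

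The promoters of several of these genes are textbook targets of the family, so the sequence just before a start is shown for 7 of them. Rel, Nfkb2 and Nfkbid are shown as members that were higher in all exposed groups, Nfkbia and Tnfaip3 as feedback inhibitors whose comparison with naive cells turned on 1 library, Nfkbie as a member with a match that was not called in the reported fit, and Rela as the subunit that differed least from naive cells. The 250 bases before annotated starts were taken from RefSeq (build GRCm38.p6) and searched on both strands for the 10-base kappa-B consensus. Capitals mark matches, and where matches on opposite strands overlap the capitals cover all of them. The Rel stretch is chr11:23770970-23771219 (minus strand), Nfkb2 chr19:46304487-46304736 (plus), Nfkbid chr7:30422156-30422405 (plus), Nfkbia chr12:55492648-55492897 (minus), Tnfaip3 chr10:19015411-19015660 (minus), Nfkbie chr17:45555450-45555699 (plus) and Rela chr19:5637291-5637540 (plus), each printed 5′ to 3′ on the strand of its gene.
Rel: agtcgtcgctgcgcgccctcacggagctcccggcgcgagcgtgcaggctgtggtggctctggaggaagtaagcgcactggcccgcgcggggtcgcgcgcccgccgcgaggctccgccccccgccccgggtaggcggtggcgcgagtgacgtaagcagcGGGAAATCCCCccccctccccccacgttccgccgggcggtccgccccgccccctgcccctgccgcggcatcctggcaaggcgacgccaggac
Nfkb2: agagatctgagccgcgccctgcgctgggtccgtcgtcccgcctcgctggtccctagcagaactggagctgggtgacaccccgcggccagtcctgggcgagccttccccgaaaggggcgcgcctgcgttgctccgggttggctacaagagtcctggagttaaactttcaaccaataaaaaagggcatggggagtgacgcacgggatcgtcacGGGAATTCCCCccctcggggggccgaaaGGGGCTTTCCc
Nfkbid: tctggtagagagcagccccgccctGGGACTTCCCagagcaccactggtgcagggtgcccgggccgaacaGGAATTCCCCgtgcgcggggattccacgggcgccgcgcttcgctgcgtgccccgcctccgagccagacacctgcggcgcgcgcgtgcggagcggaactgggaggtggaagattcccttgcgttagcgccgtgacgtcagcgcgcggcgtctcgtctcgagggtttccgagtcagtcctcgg
Nfkbia: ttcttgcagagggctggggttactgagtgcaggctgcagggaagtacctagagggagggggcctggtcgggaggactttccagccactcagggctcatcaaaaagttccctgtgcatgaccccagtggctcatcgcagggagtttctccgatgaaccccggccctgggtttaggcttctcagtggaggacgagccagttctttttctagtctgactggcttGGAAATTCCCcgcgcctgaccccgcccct
Tnfaip3: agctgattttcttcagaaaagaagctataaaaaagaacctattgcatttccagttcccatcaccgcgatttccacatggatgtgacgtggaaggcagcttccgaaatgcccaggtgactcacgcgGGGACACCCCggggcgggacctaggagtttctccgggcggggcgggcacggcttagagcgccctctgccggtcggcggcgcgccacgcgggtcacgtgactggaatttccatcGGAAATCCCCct
Nfkbie: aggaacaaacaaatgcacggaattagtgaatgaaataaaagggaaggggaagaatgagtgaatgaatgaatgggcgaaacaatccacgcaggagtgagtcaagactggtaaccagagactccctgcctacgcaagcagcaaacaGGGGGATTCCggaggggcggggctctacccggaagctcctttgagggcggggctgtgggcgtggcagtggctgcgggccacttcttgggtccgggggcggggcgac
Rela: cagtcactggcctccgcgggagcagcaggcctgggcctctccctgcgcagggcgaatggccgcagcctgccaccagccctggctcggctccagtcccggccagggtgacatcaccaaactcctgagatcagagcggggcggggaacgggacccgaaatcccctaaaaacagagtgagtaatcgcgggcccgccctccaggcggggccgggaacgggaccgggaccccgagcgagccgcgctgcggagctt
Of the 10 members, 7 had entries, with 12 windows in all, and 8 of these windows held a match. Where a gene had more than 1 window, the one shown held matches. The windows of Nfkbid at 30421481 to 30421730, just before the gene's first annotated base, and at 30423025 to 30423274 held 0 matches. So did that of Tnfaip3 at 19011964 to 19012213. The shown windows of Nfkb2 and Nfkbid lie inside the annotated genes. That of Rela lies partly inside its gene, which is annotated from 5637442. Further windows of Nfkb2, at 46305445 to 46305694 and 46305680 to 46305929, held 1 match each. By gene, 6 of the 7 held a match in 1 window or more, Rela being the exception, while 1204 of 27025 genes (4.46%) did so in the whole set. By window, 1281 of 32851 (3.90%) held one. The matches in Rel lay 82 to 92 bases before the start, those in Nfkb2 2 to 39 bases before the start shown, and the match in Nfkbia 20 to 29 bases before. A match is a stretch of letters and not a shown binding site, and its relation to the levels was not tested.

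Reads assigned to genes ran from 29335723 to 84533097 per library, and levels are counts per 1000000 reads (CPM) after scaling. Libraries of 1 group correlated at 0.961 to 0.994 across genes. The T cell genes Cd8a and Cd8b1 were at 328 CPM or more in every library, and 12 summed T cell markers were at 6073 to 7394 CPM in naive and 3426 to 4943 CPM in exposed libraries. Some lists of markers of other cells were also higher in every naive than in every exposed library. Dendritic cell markers summed to 1176 to 1644 against 213 to 504 CPM and B cell markers to 436 to 556 against 102 to 214 CPM. Erythroid and platelet markers summed to 1002 to 2403 against 21.4 to 304 CPM. Markers of CD4 and regulatory T cells overlapped, at 62.9 to 82.5 CPM in naive and 43.2 to 84.7 CPM in exposed libraries. Among them Foxp3 was at 31.8 to 49.9 CPM in the 12 libraries. Cd74, Ccr9 and H2-Aa were the most abundant of the dendritic cell markers. Ccr9 stood at 291 to 387 CPM in naive and 28.3 to 192 CPM in exposed libraries. Whether such transcripts came from the cells the lists are named for was not tested. The part of these markers in the differences from naive was not tested either. Summed markers of macrophages and monocytes (16 of 17 in the table) were at 768 to 1909.6 CPM in naive, 59.9 to 705 in activated, 53.9 to 137 in tolerized and 13.4 to 602 CPM in inflamed libraries. Vcam1, Csf1r and C1qa were the most abundant of them, Csf1r at 0.621 to 37.0 CPM in inflamed libraries. Neutrophil markers (12 of 14), led by S100a9 and Lcn2, were at 16.2 to 332 CPM in inflamed libraries against 2.56 to 26.3 CPM in the others. Summed fibroblast markers were at 1.19 to 27.4 CPM in all 12 libraries, although the extraction text of the labels also speaks of embryonic fibroblasts. The naive library of replicate 3 stood apart: 12 immediate-early genes, chosen as a list after the values were seen, summed to 4885 CPM there against 641 and 1091 CPM in the other naive libraries and 1222 to 2068 CPM in the 9 antigen-exposed libraries. Of this list, Nr4a1 was at 79.7 CPM in naive replicate 3 against 650 to 1191 CPM in exposed libraries. Egr2 was at 14.8 CPM against 70.0 to 145 CPM. The other genes of the list were highest in naive replicate 3. Comparisons with naive cells are therefore given with and without this library. In bulk libraries of this kind, fewer cells of a type and less RNA per cell cannot be told apart.

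All 5 subunit genes were higher in every antigen-exposed group than in naive cells. Differences are on the scale log2(CPM + 1), with the standard error and the p-value of limma adjusted over all 12499 genes, and a call needs an adjusted p under 0.05. Of the 10 members, 6 were called higher and 0 lower in activated cells, beside 35.3% of all genes higher and 35.3% lower. In tolerized cells 6 were called higher and 1 lower, beside 37.4% and 35.9%, and in inflamed cells 6 higher and 0 lower, beside 36.9% and 35.5%. The 3 comparisons share the naive libraries. Ranges apart from the naive range were common among all genes. In activated cells 4763 of 12499 genes lay wholly above naive and 4691 wholly below. The counts were 4956 and 4825 in tolerized and 4936 and 4829 in inflamed cells. Of the members, 6 lay wholly above in each group. Wholly below lay 0 in activated, 1 in tolerized and 1 in inflamed cells. The median difference of the 10 members was 0.87 in activated, 0.78 in tolerized and 0.62 in inflamed cells, while that of all genes lay between -0.04 and -0.01. With the naive library of replicate 3 left out, 8, 7 and 7 members were called higher and 0 lower. Beside these stood 33.8%, 35.6% and 35.2% of 12304 genes called higher and 31.9%, 33.1% and 32.6% called lower.

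Rel, the subunit most restricted to lymphoid and myeloid cells (chromosome 11, 23736847 to 23770969), had the largest difference of the 5 subunits in each group. Its level was 18.0, 17.7 and 24.5 CPM in naive, 131, 116 and 103 CPM in activated, 148, 119 and 88.0 CPM in tolerized and 69.3, 59.9 and 87.7 CPM in inflamed libraries. The lowest exposed library lay above the highest naive one by more than the whole naive range. The difference from naive was 2.49 ± 0.20 in activated (adjusted p = 2.07e-06), 2.49 ± 0.20 in tolerized (adjusted p = 1.79e-06) and 1.80 ± 0.20 in inflamed cells (adjusted p = 2.01e-05). Without naive replicate 3 these were 2.64, 2.63 and 1.94, all called. The promoter printed above has kappa-B matches 82 to 92 bases before the start of this gene. Whether they bear on these levels was not tested.

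Nfkb1 encodes a precursor whose processed form pairs with Rela or Rel and lacks an activating domain of its own (chromosome 3, 135584655 to 135691969). It stood at 214, 231 and 211 CPM in naive, 943, 622 and 595 CPM in activated and 817, 672 and 624 CPM in tolerized libraries. The inflamed libraries, at 434, 369.8 and 461 CPM, lay between the naive and the other exposed libraries without overlap. Its difference from naive was 1.68 ± 0.17 in activated (adjusted p = 9.18e-06), 1.67 ± 0.17 in tolerized (adjusted p = 8.29e-06) and 0.94 ± 0.17 in inflamed cells (adjusted p = 0.000534). The annotated gene Gm46827 overlaps Nfkb1, and whether reads were counted by strand is not given in the sources used here.

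Nfkb2, the precursor of the non-canonical route (chromosome 19, 46300994 to 46312400), was at 66.8, 64.6 and 75.8 CPM in naive and 343, 252 and 208 CPM in activated libraries. It was at 298, 244 and 222 CPM in tolerized and 246, 185 and 228 CPM in inflamed libraries, so the exposed groups overlapped one another and none overlapped naive. The differences were 1.91 ± 0.18 (adjusted p = 5.48e-06), 1.86 ± 0.18 (adjusted p = 5.68e-06) and 1.65 ± 0.18 (adjusted p = 1.44e-05) in activated, tolerized and inflamed cells. Psd and 4833438C02Rik overlap this gene. Relb, the activating partner of processed Nfkb2 (chromosome 7, 19606217 to 19629438), was at 29.9 to 31.6 CPM in naive and at 53.6 to 74.7 CPM in the 9 exposed libraries. It rose by 1.0 ± 0.12 (adjusted p = 3.02e-05), 0.94 ± 0.12 (adjusted p = 4.16e-05) and 0.95 ± 0.12 (adjusted p = 3.76e-05) in the same order.

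Rela, the widely expressed activating subunit (chromosome 19, 5637442 to 5648134), differed least. It was at 112, 105 and 114 CPM in naive, 164, 133 and 128 CPM in activated, 147, 131 and 132 CPM in tolerized and 149, 132 and 126 CPM in inflamed libraries. No exposed library fell within the naive range. The differences of 0.35 ± 0.10 (adjusted p = 0.0106), 0.31 ± 0.10 (adjusted p = 0.0199) and 0.29 ± 0.10 (adjusted p = 0.0255) were called. Their direction depends on the scaling: by library size alone, which lowers the median difference of all genes from naive by 0.22 to 0.27, Rela differed by 0.08 in activated (adjusted p = 0.428), -0.0025 in tolerized (adjusted p = 0.98) and -0.04 in inflamed cells (adjusted p = 0.699). Median-of-ratios scaling kept the direction and ended the call in tolerized (0.26, adjusted p = 0.0683) and inflamed cells (0.25, adjusted p = 0.0739). In activated cells a replicate block in the 2 groups ended it (adjusted p = 0.0515). The call was also lost in tolerized cells without naive replicate 2 (adjusted p = 0.0676) or tolerized replicate 1 (adjusted p = 0.0591), and in inflamed cells without naive replicate 1 (adjusted p = 0.0512), naive replicate 2 (adjusted p = 0.0825) or inflamed replicate 1 (adjusted p = 0.0817).

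**Figure D1:**
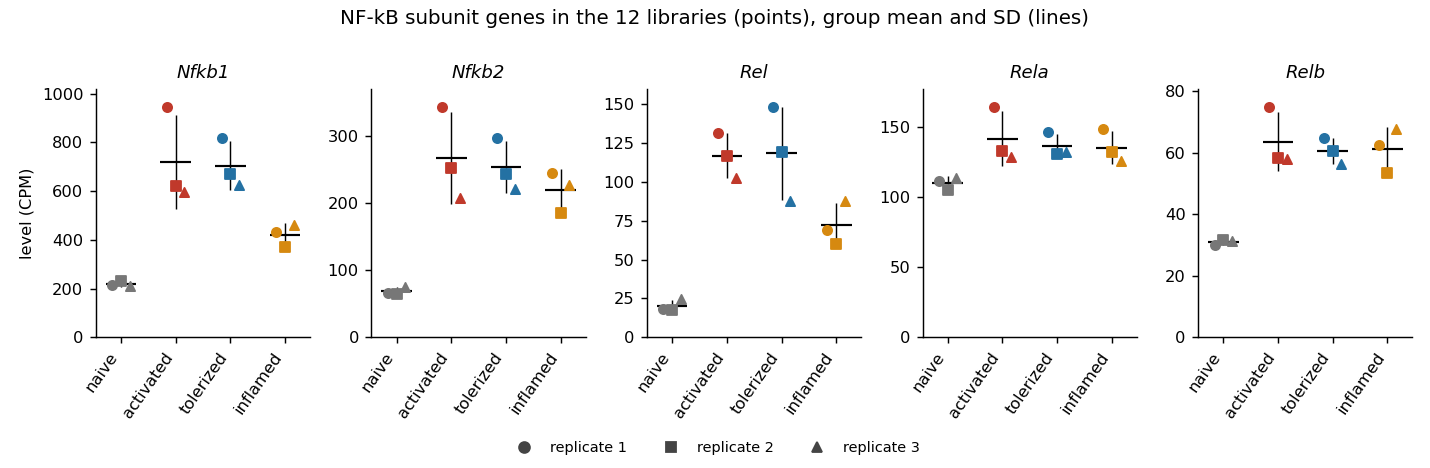
Levels in CPM (vertical axis, from 0) of the 5 subunit genes in the 12 libraries, by group. Points are libraries with a shape for each replicate number, and lines are the group mean and SD; Rel rises from 17.7 to 24.5 CPM in naive to at least 59.9 CPM in exposed libraries, and Nfkb1 in inflamed libraries lies between the naive and the other exposed libraries.

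The inhibitor genes fell into those that rose, those that did not pass the test and 1 that was lower. Nfkbid encodes an atypical, nuclear IκB protein that is induced by T cell receptor signals (chromosome 7, 30421731 to 30428749). It was at 35.2, 35.2 and 64.2 CPM in naive, 164, 154 and 136 CPM in activated, 164, 132 and 107 CPM in tolerized and 142, 128 and 152 CPM in inflamed libraries. All 9 exposed libraries were above the highest naive one. The differences were 1.79 ± 0.22 (adjusted p = 4.41e-05), 1.60 ± 0.22 (adjusted p = 8.56e-05) and 1.68 ± 0.22 (adjusted p = 5.89e-05), and 2.07, 1.88 and 1.96 without naive replicate 3. Among the members, Nfkbid was the only IκB family gene called higher in all 3 comparisons with naive cells, in both fits. Nfkbib, an IκB gene that is not a member, was at 24.1 to 26.9 CPM in naive and 77.3 to 141 CPM in exposed libraries.

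Nfkbiz, which encodes another nuclear IκB protein that acts as a co-activator of selected targets (chromosome 16, 55811375 to 55838954), was on the low side of naive. It was at 43.8, 40.4 and 68.6 CPM in naive, 22.1, 33.0 and 44.5 CPM in activated, 18.4, 25.8 and 35.0 CPM in tolerized and 30.6, 30.6 and 37.9 CPM in inflamed libraries. The tolerized and inflamed libraries lay below every naive one. It fell by 0.93 ± 0.29 in tolerized cells (adjusted p = 0.0136), a call lost without naive replicate 3 (adjusted p = 0.0605) or tolerized replicate 1 (adjusted p = 0.0658). In activated cells the difference was -0.62 ± 0.29 (adjusted p = 0.0774) and in inflamed cells -0.58 ± 0.29 (adjusted p = 0.0944). The activated value was called without activated replicate 3 (-0.85, adjusted p = 0.0257), without the libraries richest in resting transcripts of each exposed group (adjusted p = 0.0258), under library size scaling (adjusted p = 0.0289) and with the replicate number as a block in all libraries (adjusted p = 0.00633) or in the 2 groups (adjusted p = 0.0331). The inflamed value was called under library size scaling (adjusted p = 0.0266), in a fit of 2 groups (adjusted p = 0.0374) and with the block in all libraries (adjusted p = 0.00846) or in 2 groups (adjusted p = 0.012).

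Nfkbie, a classical cytoplasmic inhibitor (chromosome 17, 45555700 to 45563169), was at 37.7 to 43.4 CPM in naive, 37.8 to 39.1 in activated, 33.7 to 42.4 in tolerized and 29.3 to 39.9 CPM in inflamed libraries. All 4 ranges overlapped. The differences from naive were -0.09 ± 0.12 (95% interval -0.36 to 0.19), -0.11 ± 0.12 (-0.38 to 0.17) and -0.27 ± 0.12 (-0.54 to 0.0014; adjusted p = 0.0682), and none was called. The inflamed value was called under 6 of the alternatives: without inflamed replicate 1 (-0.38, adjusted p = 0.0134), without activated and inflamed replicate 1 (adjusted p = 0.0211), with limma-voom (adjusted p = 0.0462), with the replicate number as a block (adjusted p = 0.0432), and under median-of-ratios (adjusted p = 0.0472) and library size scaling (adjusted p = 0.000679). Scaled by library size alone, the same gene was called lower in all 3 groups, at -0.36, -0.41 and -0.59.

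Nfkbia encodes the main inhibitor of Rela- and Rel-containing dimers and is a feedback target of NF-κB (chromosome 12, 55489409 to 55492647). Its naive libraries were at 107, 109 and 329 CPM, the last being replicate 3. The activated libraries were at 276, 171 and 157 CPM, the tolerized at 186, 154 and 145 CPM and the inflamed at 184, 129 and 165 CPM. All 9 exposed libraries therefore lay between naive replicates 2 and 3. With all libraries the differences were 0.31 ± 0.38 (adjusted p = 0.481), 0.03 ± 0.38 (adjusted p = 0.942) and 0.0072 ± 0.38 (adjusted p = 0.988). Without naive replicate 3 they were 0.84 ± 0.23, called (adjusted p = 0.0108), 0.57 ± 0.23 (adjusted p = 0.0543) and 0.54 ± 0.23 (adjusted p = 0.0651).

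Tnfaip3 encodes a ubiquitin-editing enzyme that restrains signalling to the IKK complex (chromosome 10, 19000910 to 19015410). It depended most on that library, with 58.7, 73.8 and 475 CPM in naive cells. It was at 272, 201 and 176 CPM in activated, 213, 213 and 169 CPM in tolerized and 146, 115 and 155 CPM in inflamed libraries. Naive replicate 3 was above, and the other naive libraries below, every exposed library. With all libraries the differences were 0.73 ± 0.60 (adjusted p = 0.292), 0.62 ± 0.60 (adjusted p = 0.366) and 0.11 ± 0.60 (adjusted p = 0.880). Without naive replicate 3 Tnfaip3 was called higher in all 3 groups, by 1.68 ± 0.20 (adjusted p = 8.72e-05), 1.57 ± 0.20 (adjusted p = 0.000117) and 1.05 ± 0.20 (adjusted p = 0.00135).

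Naive replicate 3 thus split the members. Tnfaip3 was 7.17 times the mean of the other naive libraries there, Nfkbia 3.04 times, Nfkbid 1.82 times, Nfkbiz 1.63 times and Rel 1.37 times. The remaining subunits and Nfkbie stood at 0.887 to 1.15 times that mean. On the log2(CPM + 1) scale, 168 of the 12499 tested genes (1.34%) were at least doubled in this library. The part of the immediate-early genes in these levels was not tested.

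**Figure D2:**
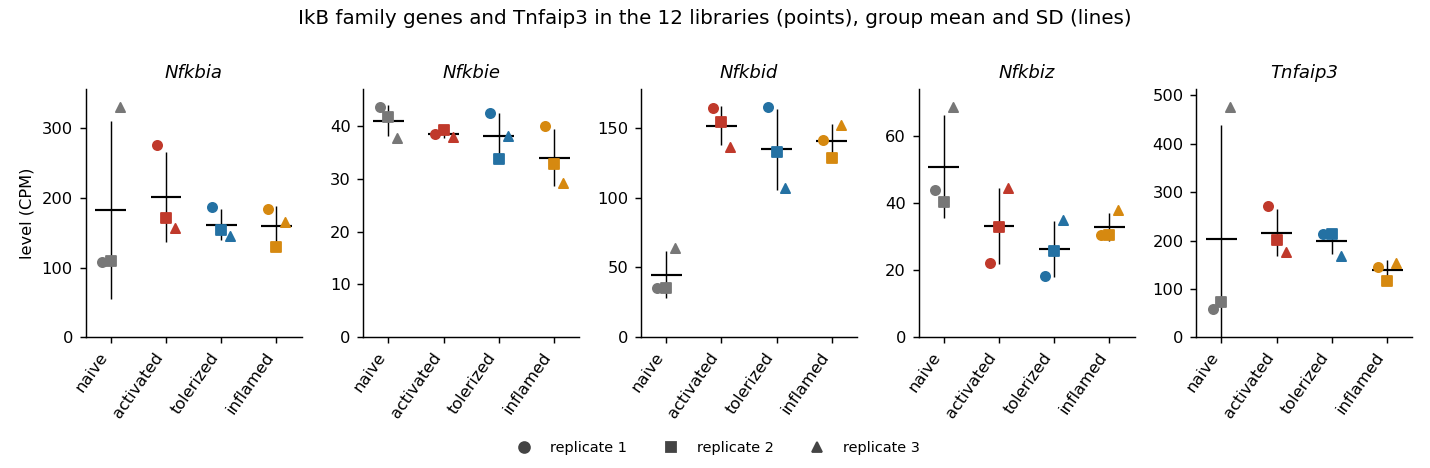
Levels in CPM (vertical axis, from 0) of 4 IκB family genes and Tnfaip3 in the 12 libraries, by group. Points are libraries with a shape for each replicate number, and lines are the group mean and SD; in naive cells replicate 3 stands at 329 CPM for Nfkbia and 475 CPM for Tnfaip3, far above the other naive libraries.

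**Figure D3:**
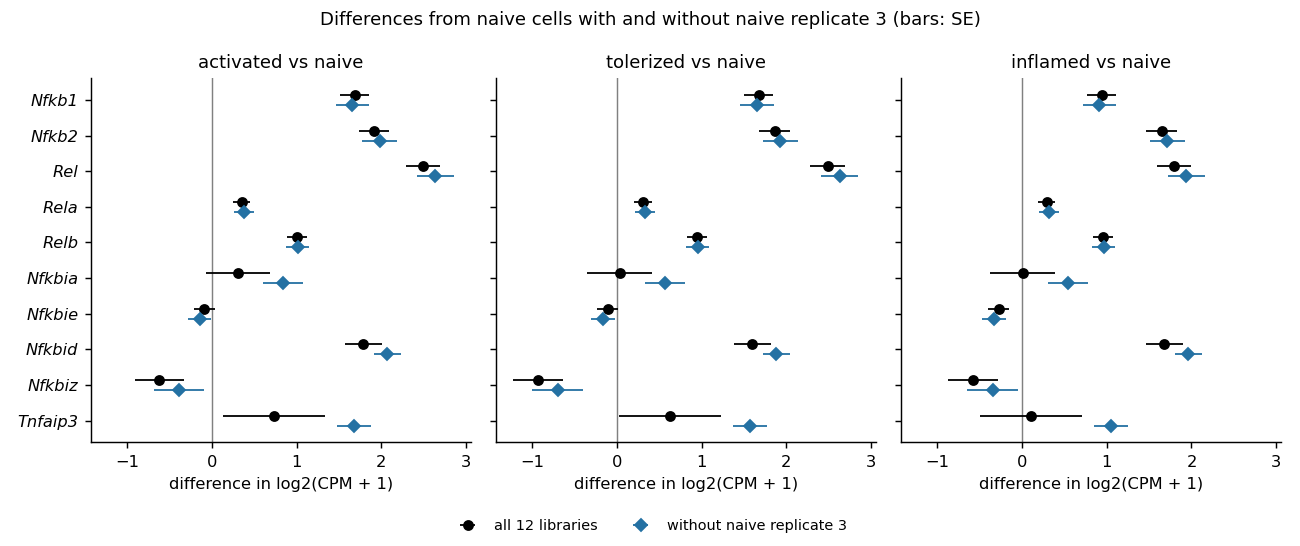
Difference of each member from naive cells in log2(CPM + 1) (horizontal axis) for the 3 antigen-exposed groups, with bars for the standard error. Circles use all 12 libraries and diamonds leave out naive replicate 3; the 5 subunit genes hardly move between the fits while Tnfaip3 in activated cells goes from 0.73 to 1.68.

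Tolerized and activated cells, which differ by the anti-CD154 antibody, were compared next. No member was called, and limma called 0 of the 12499 genes (0%) at an adjusted p under 0.05. At an unadjusted p under 0.05 there were 531 genes and 0 members. The ranges of the 3 libraries overlapped for all 10 members, while 6.66% of all genes had ranges that did not. The differences of the subunits were -0.0094 for Nfkb1 (95% interval -0.38 to 0.37), -0.05 for Nfkb2 (-0.45 to 0.34), -0.0055 for Rel (-0.46 to 0.45), -0.05 for Rela (-0.27 to 0.18) and -0.06 for Relb (-0.32 to 0.20). Differences as large as these limits on either side are within the error. Intervals were wider for Nfkbia (-1.12 to 0.57) and Tnfaip3 (-1.44 to 1.22), whose naive libraries spread most and share the estimate of the spread. Leaving out tolerized replicate 1 gave 60 called genes and again no member.

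Inflamed cells, which differ from tolerized cells by LPS, had less Nfkb1. It was at 422 ± 47.0 CPM (SD, n = 3) in inflamed and 704 ± 101 CPM in tolerized cells, a difference of -0.74 ± 0.17 (adjusted p = 0.0472), and every inflamed library was below every tolerized one. It was the only member called, 1 of 10 lower and 0 higher, beside 1.12% of all genes lower and 1.66% higher. The call is close to the threshold and held without activated replicate 1 (adjusted p = 0.00579) or activated replicate 3 (adjusted p = 0.0415), and was lost when any of the other 10 libraries was left out, with an adjusted p of up to 0.168 without inflamed replicate 2, while the difference stayed between -0.82 and -0.62. It was also lost in a fit of the antigen-exposed libraries alone (adjusted p = 0.123). Activated replicate 1 and inflamed replicate 1 held the most macrophage transcripts among the exposed libraries, and without these 2 the difference was -0.75 (adjusted p = 0.0226).

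Against activated cells, which had neither antibody nor LPS, the difference of Nfkb1 was of the same size, -0.74 ± 0.17, and was not called (adjusted p = 0.0567). The 2 comparisons share the inflamed libraries. No member was called, beside 1.54% of all genes higher and 0.384% lower, and 2 members, Nfkb1 and Rel, had an unadjusted p under 0.05, as did 1250 genes. With the replicate number as a block in all 12 libraries Nfkb1 was called (adjusted p = 0.0466), and with the block in these 2 groups alone it was not (adjusted p = 0.208). It was called without activated replicate 3 (adjusted p = 0.043) or tolerized replicate 1 (adjusted p = 0.0432). Without activated replicate 1 and inflamed replicate 1 the value was -0.56 (adjusted p = 0.166).

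Rel was below both other exposed groups in every inflamed library without passing the test. Its level was 72.3 ± 14.1 CPM in inflamed cells against 117 ± 14.3 CPM in activated and 118 ± 29.9 CPM in tolerized cells (SD, n = 3). The difference was -0.70 ± 0.20 from activated (adjusted p = 0.166) and -0.69 ± 0.20 from tolerized cells (adjusted p = 0.116), and the latter was called only without tolerized replicate 3 (-0.89, adjusted p = 0.0449) among the alternatives run. Tnfaip3 was at 139 ± 20.5 CPM in inflamed cells, below all libraries of both other exposed groups, with differences of -0.52 from tolerized (95% interval -1.85 to 0.82) and -0.63 from activated cells (-1.96 to 0.70) in a fit whose error holds the spread of its naive libraries. These 3 genes were the members whose ranges did not overlap in each comparison, 3 of 10 beside 18.3% of all genes against tolerized and 13.2% against activated cells. The remaining 7 differed by -0.21 to 0.35 from tolerized and by -0.30 to 0.04 from activated cells, and none of them was called.

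**Figure D4:**
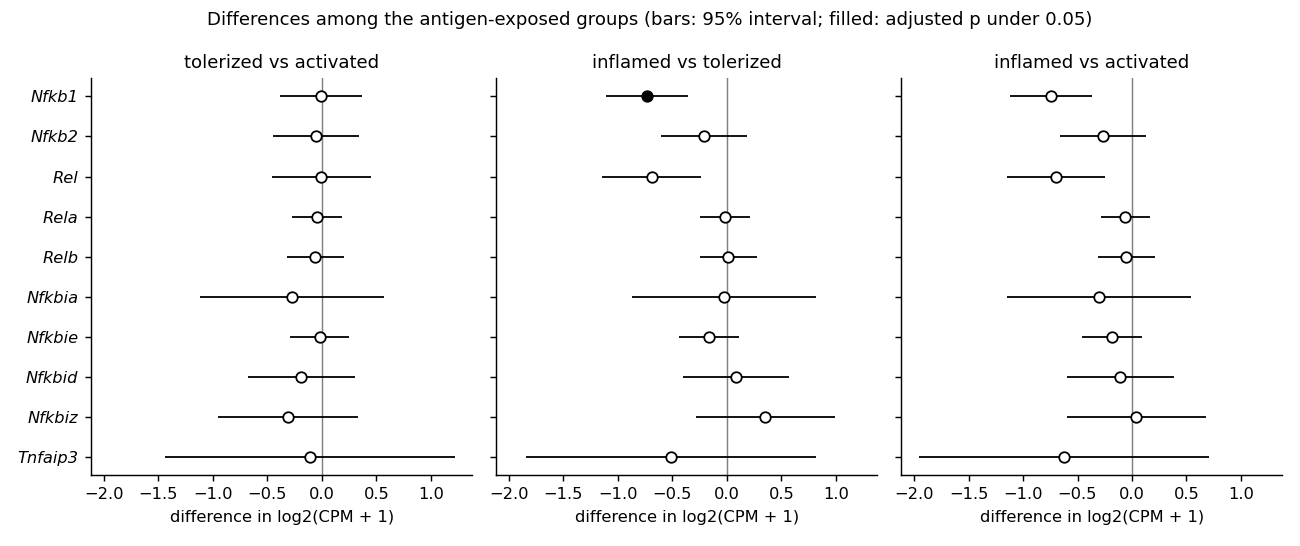
Differences of the 10 members among the antigen-exposed groups in log2(CPM + 1) (horizontal axis), with bars for the 95% interval and filled points for an adjusted p under 0.05. Nfkb1 in inflamed against tolerized cells, at -0.74, is the only filled point, and all intervals in tolerized against activated cells include 0.

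Levels can be set against one another per kilobase (kb) of the deposited exon length. In naive cells the means per kb ran from Nfkbia (115 CPM per kb), Nfkb1 (53.1), Tnfaip3 (45.8) and Rela (40.7) down to Relb (14.1), Nfkbiz (13.2) and Rel (7.77), the lowest of the 10. The ranges of Nfkb1 and Tnfaip3, and of Tnfaip3 and Rela, overlapped, as did those of Nfkbid and Nfkb2 and of Relb and Nfkbiz. Without naive replicate 3 the means of Nfkbia and Tnfaip3 were 68.5 and 14.98 CPM per kb, which puts Tnfaip3 below Rela, Nfkb2, Nfkbid and Nfkbie. In each exposed group Nfkb1 was highest, at 175 CPM per kb in activated, 171 in tolerized and 102 in inflamed cells, and Nfkbia was second, at 127, 102 and 101 CPM per kb. The ranges of these 2 overlapped in activated and inflamed cells and not in tolerized cells. Rel moved from the tenth place to 45.2, 45.8 and 27.98 CPM per kb, above Relb in activated and tolerized cells without overlap and overlapping it in inflamed cells. Nfkbie and Nfkbiz were the lowest in all 3 exposed groups, with Nfkbie above Nfkbiz and no overlap.

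The make-up of the subunit transcripts differed accordingly. Of the summed CPM per kb of the 5 subunit genes, Rela held 29.7% ± 1.1 (SD, n = 3) in naive cells, 13.8% ± 1.1 in activated, 13.6% ± 1.2 in tolerized and 18.2% ± 2.2 in inflamed cells. Rel held 5.65% ± 0.95, 11.9% ± 1.2, 12.1% ± 1.6 and 10.1% ± 1.3 in the same order, and Nfkb1 38.7% ± 2.4, 45.1% ± 2.2, 45.7% ± 0.47 and 37.0% ± 1.0. The share of Nfkb2 was 15.7% ± 1.0 in naive and highest in inflamed cells, at 24.7% ± 1.4. The ratio of Rel to Rela per kb was 0.169 to 0.225 in naive, 0.839 to 0.918 in activated, 0.697 to 1.06 in tolerized and 0.476 to 0.732 in inflamed libraries. The inflamed and tolerized ranges of this ratio overlapped. The ratio of Nfkb1 to Nfkb2 was 2.17 to 2.78 in naive, 1.92 to 2.23 in activated, 2.14 to 2.19 in tolerized and 1.37 to 1.58 in inflamed libraries, and so was lower in each inflamed library than in each of the other 9. These shares and ratios were not tested.

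**Figure D5:**
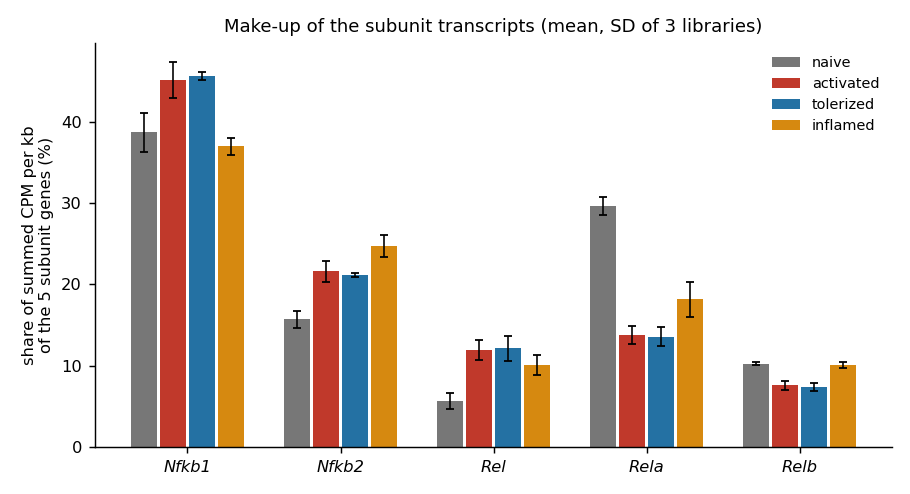
Share of each subunit gene in the summed CPM per kb of the 5 subunit genes (vertical axis, percent, from 0), with bars for the mean of 3 libraries in each group and lines for the SD. Rela holds 29.7% in naive cells against 13.8% and 13.6% in activated and tolerized cells, and Nfkb2 is highest in inflamed cells at 24.7%.

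Libraries of 1 group ranked alike across members. Of the activated libraries, replicate 1 was highest for 8 of the 10 members and replicate 3 lowest for 9. Tolerized replicate 1 was highest for 8 and tolerized replicate 3 lowest for 7, and inflamed replicate 2 was lowest for 7. Nfkbiz went the other way in activated and tolerized cells, lowest in replicate 1 and highest in replicate 3. In inflamed cells its replicates 1 and 2 were nearly equal, at 30.61 and 30.63 CPM. Inflamed replicate 3 was highest for 6 members, Nfkbiz among them. A list of 12 resting T cell transcripts, chosen after the values were seen, summed to 1902, 2390 and 3204 CPM in activated, 2059, 2023 and 2714 CPM in tolerized and 2202, 2654 and 2135 CPM in inflamed libraries, so its highest library in each group was one of those lowest for most members. In naive cells the list stood at 4854 to 5787 CPM. The part of these transcripts in the levels was not tested. With the library richest in them left out of each exposed group (activated 3, tolerized 3 and inflamed 2), Nfkb1 differed by -0.73 between inflamed and tolerized cells (adjusted p = 0.132) and by -0.78 between inflamed and activated cells (adjusted p = 0.12).

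Genes with the most similar profile were sought for each member by Pearson's r of log2(CPM + 1) over the 12 libraries. Candidates were the 7948 genes that averaged 10 CPM or more. The libraries share groups, so r mostly follows the group levels, and it is given as a description. Nfkb1 was closest to Bcl2l1 (r = 0.991), which encodes a survival protein, and then to Fasl (0.983). Rel was closest to Dnmt3a (0.991), Nfkb2 to Bsg (0.994) and Relb to Dcun1d5 (0.993). Nfkbid was closest to Nr4a1 (0.991), an immediate-early gene induced by the T cell receptor, at 10.3, 11.9 and 79.7 CPM in naive and 649.7 to 1191 CPM in exposed libraries. Nfkbia and Tnfaip3 were both closest to Sik1 (0.903 and 0.929), which was at 16.97, 17.9 and 145 CPM in naive libraries. Rela was closest to Ehd1 (0.958), and Nfkbie and Nfkbiz had the weakest nearest neighbours, Dcaf4 (0.822) and Mab21l2 (0.905), with Nfkbia.

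Among the members, r between Tnfaip3 and Nfkb1 was 0.406 over 12 libraries, 0.983 over the 11 without naive replicate 3 and 0.960 over the 9 exposed libraries. Between Nfkbia and Nfkb2 it was 0.290, 0.856 and 0.916. Rel and Nfkb1 stood at 0.964, 0.959 and 0.927. Nfkbiz had a negative r with Nfkb1 in each set, at -0.769, -0.688 and -0.574.

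Genes upstream of the subunits came from lists by role. Of 14 genes of the IKK complex and its activating kinases, 4 were called higher and 7 lower in activated, 4 and 8 in tolerized and 5 and 7 in inflamed cells against naive cells. Over all genes, the shares were 35.3% higher and 35.3% lower in activated, 37.4% and 35.9% in tolerized, and 36.9% and 35.5% in inflamed cells. Map3k14, the kinase of the non-canonical route, was at 121 ± 3.03 CPM in naive cells and 51.2 ± 13.4 CPM after activation (SD, n = 3) and fell by 1.26 ± 0.15 (adjusted p = 3.8e-05), and Map3k3 fell by 1.40 ± 0.22 (adjusted p = 0.000221). Ikbkb, the catalytic subunit of IKK in the canonical route, fell by 0.84 ± 0.15, from 300 ± 8.55 to 171 ± 39.9 CPM (adjusted p = 0.000528). Chuk, the other catalytic subunit, rose by 0.53 ± 0.10, from 75.6 ± 4.39 to 109 ± 11.2 CPM (adjusted p = 0.000927), a call that scaling by library size removed (adjusted p = 0.0814). In inflamed against tolerized cells 0 of these 14 genes were called, and in inflamed against activated cells Map3k8, a kinase bound by the Nfkb1 precursor, was the single call, at 1.39 ± 0.29 (adjusted p = 0.0347). That call was kept in 4 of the 12 fits with 1 library left out. Over all genes, inflamed cells had 1.66% called higher and 1.12% lower against tolerized, and 1.54% and 0.384% against activated cells.

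Of 14 genes of the relay from the T cell receptor to IKK, 5 were called higher and 8 lower in activated, 5 and 7 in tolerized and 4 and 4 in inflamed cells against naive cells. Beside these stood 35.3% and 35.3%, 37.4% and 35.9%, and 36.9% and 35.5% of all genes. The ubiquitin-conjugating genes Ube2n and Ube2v1 rose by 1.98 ± 0.11 (adjusted p = 2.5e-07) and 1.04 ± 0.15 (adjusted p = 0.00017) in activated cells and the costimulatory receptor gene Cd28 by 1.0 ± 0.11 (adjusted p = 1.5e-05), while the kinase gene Prkcq fell by 1.19 ± 0.20 (adjusted p = 0.000374). Malt1, a protease and scaffold of antigen receptor signalling, was at 123, 130 and 115 CPM in naive, 51.2, 65.1 and 86.0 in activated, 58.9, 53.6 and 73.4 in tolerized and 110.3, 158 and 154 CPM in inflamed libraries. Each inflamed library was thus above each activated and tolerized one. It was higher in inflamed than in tolerized cells by 1.16 ± 0.19 (adjusted p = 0.00883) and than in activated cells by 1.06 ± 0.19 (adjusted p = 0.0184). Of these 2 calls, the first was lost without tolerized replicate 2 or inflamed replicate 2 and the second without activated replicate 1 or 2 or inflamed replicate 2 or 3. The first was also lost with a replicate block in the 2 groups (adjusted p = 0.138). A fit of the 2 groups (adjusted p = 0.135) or of the antigen-exposed libraries alone (adjusted p = 0.0632) ended the second. Vav1, an exchange factor of receptor signalling, was higher by 0.51 ± 0.08 (adjusted p = 0.00646) and 0.45 ± 0.08 (adjusted p = 0.0149), and the second call was lost without activated replicate 1 or 2 or inflamed replicate 1 or 2. In a fit of the 2 groups the first Vav1 call (adjusted p = 0.0626) and the second (adjusted p = 0.132) were both lost. A replicate block in the 2 groups also ended the first (adjusted p = 0.226), and library size scaling the second (adjusted p = 0.0582). The second was lost too without the resting-rich (adjusted p = 0.0834) or myeloid-rich libraries (adjusted p = 0.139).

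Of 19 genes of the tumour necrosis factor receptor and Toll-like receptor relays, 4 were called higher and 6 lower in activated, 4 and 7 in tolerized and 5 and 6 in inflamed cells against naive cells. The shares of all genes were 35.3% and 35.3%, 37.4% and 35.9%, and 36.9% and 35.5%. Tnfrsf1b, a receptor for tumour necrosis factor, rose by 1.48 ± 0.15 in activated cells (adjusted p = 8.74e-06), and Tnfrsf1a fell by 0.64 ± 0.14 (adjusted p = 0.00241). Traf1, a signalling adaptor that is itself an NF-κB target, was at 154, 142 and 135 CPM in activated, 131, 149 and 198 CPM in tolerized and 78.6, 75.1 and 69.2 CPM in inflamed libraries. It was lower in inflamed than in tolerized cells by a log2 difference of -1.07 ± 0.13 (adjusted p = 0.00166) and than in activated cells by -0.94 ± 0.13 (adjusted p = 0.00411), calls kept in all 12 fits that left out 1 library. It was the only 1 of these 19 genes called in either comparison.

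Of 21 other inhibitors and brakes of the pathway, 7 were called higher and 7 lower in activated, 9 and 7 in tolerized and 9 and 7 in inflamed cells against naive cells. These counts stand beside 35.3% and 35.3%, 37.4% and 35.9%, and 36.9% and 35.5% of all genes. Tnip3, which encodes a partner of the Tnfaip3 protein, was at 0.104 to 0.109 CPM in naive, 3.38 to 4.69 in activated, 4.63 to 6.45 in tolerized and 24.0 to 33.2 CPM in inflamed libraries. It was higher in inflamed than in tolerized cells by 2.16 ± 0.17 (adjusted p = 0.000139) and than in activated cells by 2.50 ± 0.17 (adjusted p = 5.51e-05), with both calls kept in all 12 fits that left out 1 library. Bcl3, an atypical IκB protein that binds dimers of processed Nfkb1 or Nfkb2, was at 12.5 to 14.96 CPM in naive, 8.71, 9.70 and 26.9 in activated, 6.23, 8.08 and 13.5 in tolerized and 43.6, 31.4 and 36.3 CPM in inflamed libraries. It was higher in inflamed than in tolerized cells by 1.94 ± 0.37 (adjusted p = 0.0193), a call lost without tolerized replicate 2 or inflamed replicate 1 or 2. Against activated cells its difference of 1.40 ± 0.37 was not called (adjusted p = 0.112) and was called without activated replicate 3. N4bp1 was the third call against tolerized cells, at 0.62 ± 0.10 (adjusted p = 0.00575), and with Tnip3 it was called against activated cells, at 0.59 ± 0.10 (adjusted p = 0.0095), except without activated replicate 2 or inflamed replicate 1 or 2. Macrophage and neutrophil transcripts were highest in inflamed replicate 1, where Bcl3 was also highest of the inflamed libraries, and lowest in inflamed replicate 3, where Tnip3 was highest. Without activated replicate 1 and inflamed replicate 1, Bcl3 (adjusted p = 0.0686) was not called against tolerized cells and N4bp1 (adjusted p = 0.0905) not against activated cells, while Tnip3 was called in both comparisons. The part of those transcripts in these levels was not tested.

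Of 30 known target genes 28 were tested, and 19 were called higher and 2 lower in activated, 19 and 2 in tolerized and 20 and 3 in inflamed cells against naive cells. The corresponding shares of all genes were 35.3% and 35.3%, 37.4% and 35.9%, and 36.9% and 35.5%. This list was chosen with earlier results of these data known. The median difference of the tested targets was 2.31, 2.14 and 1.98 in these groups, and that of all genes was -0.039, -0.0099 and -0.0056. Tnfrsf9, a costimulatory receptor gene, and Il2ra, the alpha chain gene of the interleukin-2 receptor, stood at 1.55 to 2.18 and 2.49 to 3.12 CPM in naive and at 558 to 867 and 197 to 343 CPM in activated libraries. Traf1 is in this list too, and with Bcl2l1 made up the 2 genes lower in inflamed than in tolerized cells. Bcl2l1 was at 104, 63.6 and 51.4 CPM in activated, 79.8, 72.5 and 59.9 CPM in tolerized and 27.8, 19.8 and 28.2 CPM in inflamed libraries, with differences of -1.46 ± 0.23 (adjusted p = 0.00646) from tolerized and -1.45 ± 0.23 (adjusted p = 0.00869) from activated cells. Il2ra went the other way, higher by 1.04 ± 0.23 (adjusted p = 0.0411) and 1.11 ± 0.23 (adjusted p = 0.038), and each of these calls was kept in 4 of the 12 fits with 1 library left out. With the replicate number as a block in inflamed and activated libraries alone, the calls between them were lost for Vav1 (adjusted p = 0.232), N4bp1 (adjusted p = 0.199), Bcl2l1 (adjusted p = 0.0997) and Il2ra (adjusted p = 0.178), and all 4 held with the block in 12 libraries. The remaining 25 tested targets were not called in either comparison, and in tolerized against activated cells no gene of any of these lists was called.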

How the data were processed

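Messenger RNA of sorted KB5 CD8 T cells was sequenced in 12 libraries, 3 for each of 4 groups, with groups and replicate numbers taken from the labels. The deposited table held 1 whole read count per gene and library, not normalized, beside the exon length. Per the submitters' processing notes, TopHat2, bedtools and DESeq and the builds mm10 and GRCm38 were used by the authors. Their versions and roles are not given in the sources used here. The counts are written with commas, which a format check does not read as numbers. They were therefore handled under the unit other, and limma-trend took the place of a count model.

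CPM were computed with scaling factors from the trimmed mean of M-values (0.897 to 1.22, with 30% and 5% trimmed). The filter asked for 0.258 CPM (10 reads at the median depth) in 3 or more libraries and for 15 reads in all, which left 12499 genes. limma 3.58.1 in R 4.3.3 fitted 4 group means to log2(CPM + 1) in all 12 libraries, and p-values were Benjamini-Hochberg adjusted over all tested genes in each of 6 comparisons, with 0.05 as the threshold. The fit was tested on simulated counts. Depth was 29335723 to 84533097 reads, which need not be fragments: of counts from 1 to 20, 55.6% to 64.4% were even, against 49.3% to 50.8% of those over 1000. Reads are not independent molecules.

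The members and the gene lists were chosen with earlier results of these data known. Named were all 10 members, from each list the 4 genes with the lowest adjusted p in activated against naive and in inflamed against tolerized cells, called list genes of tolerized against activated cells, the 3 most similar genes per member (without predicted genes and receptor segments), and the 3 most abundant genes of each marker list. Values of named list genes in further comparisons, and the immediate-early and resting lists, were chosen after their values were seen. Promoter sequences and coordinates came from RefSeq tables of GRCm38.p6, and Nfkb1, Relb and Nfkbiz have no entry among the promoters.

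The meaning of a replicate number is not given by the labels, so pairing was examined through correlations between same-numbered libraries of their deviations from the group mean. Every such correlation exceeded 0.1 in tolerized against activated (0.19 to 0.60) and inflamed against activated cells (0.15 to 0.64), not in the other 4 comparisons. This pairing comes from the data alone. Alternatives were other scalings, limma-voom, other filters and pseudocounts, fits of 2 groups, replicate blocks, each library left out, and 3 added after the values were seen.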

Additional observations from a re-analysis of the deposited data

How the results depend on the processing

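Of 1470 values of the 10 members under alternatives, 28 lost and 26 gained a call, and 2 lost a call and changed sign. The other 1414 stayed on their side of the threshold, and of these 56, called in neither fit, changed sign. Calls against naive cells held in every fit with 1 library left out for 6 of 6 members in activated, 5 of 7 in tolerized and 5 of 6 in inflamed cells. Scaled by library size alone, Rela reversed against naive cells, to -0.0025 (tolerized) and -0.0377 (inflamed), since this scaling lowers all differences from naive.

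Among the exposed groups the number of called genes depended on the fit. For inflamed against activated cells it was 240, and 99 with only the 2 groups in the fit, 144 with the antigen-exposed libraries only, 147 without the libraries rich in resting transcripts, 103 without those rich in myeloid transcripts, and 107 to 328 with 1 library left out. For inflamed against tolerized cells it was 348, and 148, 195, 203 and 217 in the same order, and 157 to 540 with 1 library left out. For tolerized against activated cells it was 0, and 0 to 60 with 1 library left out. Fits with fewer samples have fewer degrees of freedom. Where a group was left with 1 or 2 libraries, these are assumed to vary like the rest.

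The count of members called in inflamed against tolerized cells, 1 in the reported fit, was 0 under median-of-ratios scaling, limma-voom, no filter, only 2 groups, the antigen-exposed libraries only and without the resting-rich libraries, and 0 to 1 with 1 library left out. In inflamed against activated cells it was 0 in the reported fit, 1 under library size scaling and 0 to 1 with 1 library left out. The cause was not tested.

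With a replicate block in all 12 libraries, 228 genes and 1 member were called in inflamed against activated cells. With the replicate block in 2 groups only, 67 genes were called there, and 0 genes and 0 members in inflamed against tolerized cells, where the numbers do not pair the libraries.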
